A study of Mus musculus with 6 samples.

Results

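The genes described here are the 10 genes of the mouse oxygen-sensing machinery that set the amount and activity of hypoxia-inducible factor (HIF), out of 17068 genes in the count table: the HIF alpha subunits Hif1a, Epas1 and Hif3a, the beta subunits Arnt and Arnt2, the prolyl hydroxylases Egln1, Egln2 and Egln3, the ubiquitin ligase subunit Vhl and the asparaginyl hydroxylase Hif1an. They were chosen by name, from what their proteins do, with earlier results of these data known. All 10 were in the table that the authors had filtered for low counts. The study asked how loss of the transcription factor Foxp1 from radial glia, the progenitors of the cortex, alters the embryonic cortex. Bulk RNA-Seq was made from lateral cortex of 6 female c57/bl6 embryos at embryonic day 12.5, 4 Cre-negative controls and 2 libraries labelled Foxp1cKO. Controls 1, 2 and 4 carried 1 floxed Foxp1 allele (Foxp1 fl/+), control 3 carried floxed alleles only (Foxp1 fl/fl), and the libraries labelled Foxp1cKO were Foxp1 fl/fl;Emx1Cre. Emx1 drives Cre in dorsal telencephalic progenitors, so vessels, blood and ventrally born cells in the same tissue keep Foxp1. The litter of each embryo was not used here.

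Cells sense oxygen through the HIF alpha subunits, which are made continuously and destroyed where oxygen is plentiful. The EGLN enzymes use oxygen to hydroxylate prolines of the alpha subunit, the VHL protein recognises the hydroxylated form, and the ligase built around VHL marks it for the proteasome, while HIF1AN hydroxylates an asparagine and so keeps coactivators from binding. Where oxygen falls, the alpha subunit persists, pairs with ARNT or ARNT2 and switches on genes for glycolysis and vessel growth, with Egln3 and Egln1 themselves among its known targets. Most of this control acts on protein, which RNA-Seq does not measure.

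The libraries held 50076008 to 78346979 counts, so that 3 counts correspond to 0.0381 to 0.0596 CPM (counts scaled to a common library size of 1000000 by TMM). The lowest count of any of the 10 genes was 467, for Egln3 in control 3. Foxp1 was at 59.7, 60.8, 71.2 and 79.1 CPM in controls 1 to 4 and at 83.2 and 76.8 CPM in the libraries labelled Foxp1cKO (log2 fold change 0.24, SE 0.129, adjusted p = 0.468, the quasi-likelihood test of edgeR, adjusted after Benjamini-Hochberg across the whole table). The mRNA of the targeted gene, counted over the whole gene, was thus not lower in the libraries that carry the mutant label. Such counts do not separate the floxed part from the rest, so each group is called here by its label. The study states that its earlier work found Cre recombination and a significant loss of Foxp1 protein before embryonic day 12.5. The dorsal telencephalon marker Emx1 was present in every library, at 118.1, 108.4, 68.8 and 135.5 CPM in controls and 98.4 and 115.5 CPM in the libraries labelled Foxp1cKO. Ventral telencephalon markers were present too, at 168 to 614 CPM in controls, highest in control 3, and at 283 to 400 CPM in the labelled libraries. Since the tissue is bulk, fewer cells of a type and less RNA per cell cannot be told apart. The p-values set the difference between groups against the spread between embryos of the same group, estimated with help from all genes. With 4 libraries against 2 there are 15 splits, so an exact permutation p of a single value, taken as the one-sided p doubled, cannot go below 0.133. The tests given are therefore those of the fit across all genes.

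All 10 genes were well detected, and their levels per kilobase of exon ordered the pathway in controls. Arnt2, the beta subunit typical of neural tissue, was highest at 48.8 ± 6.18 CPM per kilobase (SD, n = 4). Egln1, at 28.1 ± 1.04, and Egln2, at 28.0 ± 2.13, followed with overlapping ranges. Vhl came next at 22.0 ± 1.37 CPM per kilobase and Hif1an at 15.0 ± 0.182, each apart from its neighbours in every library. Arnt, at 10.5 ± 0.913, and Hif1a, at 10.3 ± 0.708, had overlapping ranges. Hif3a lay at 6.09 ± 1.98 CPM per kilobase, Egln3 at 3.61 ± 0.936 and Epas1 at 3.08 ± 0.516, and each of these overlapped the next in controls. In the libraries labelled Foxp1cKO, Egln3 was at 10.1 and 13.7 CPM per kilobase, beside 11.3 and 10.1 for Hif1a in the same libraries. With the longest transcript in place of all exons as the length, Arnt at 19.5 CPM per kilobase lay above both Hif1an at 16.0 and Hif1a at 12.9, and Egln2 at 37.2 lay above Egln1 at 28.1, so these 3 orders rest on the gene model.

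**Figure D1:**
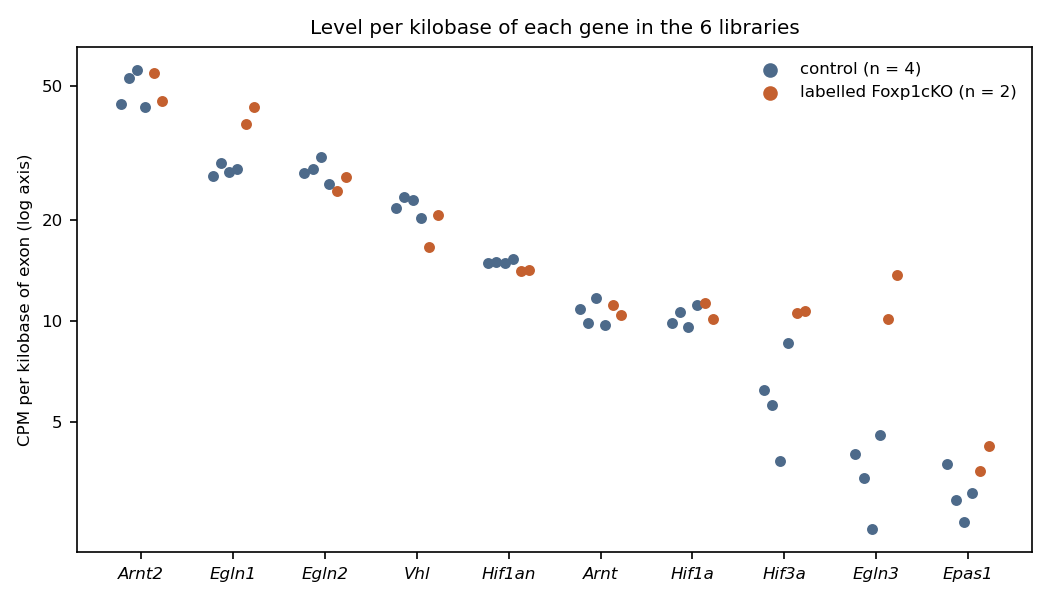
Level of each gene per kilobase of exon (CPM per kilobase, log axis) in the 6 libraries, 1 point per library, with genes ordered by their control mean. Arnt2 lies highest at 48.8 in controls and Epas1 lowest at 3.08, and the points of the libraries labelled Foxp1cKO separate upwards from the controls for Egln1, Hif3a and Egln3.

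Controls did not vary alike for the 10 genes. The coefficient of variation over the 4 controls was 1.22% for Hif1an and 3.69% for Egln1, below the lower quartile of 5.81% over the 11332 genes with a mean of at least 5 CPM. It was 25.9% for Egln3, 32.5% for Hif3a and 16.8% for Epas1, above the upper quartile of 16.4%. Counting error at the lowest count of any of the 10 genes was at most 4.63%. The lowest control was control 3 and the highest control 4 for both Egln3 and Hif3a, and Emx1 had the same lowest and highest controls. The part of tissue makeup in these values was not tested.

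By edgeR's quasi-likelihood test 0 of the 10 genes passed an adjusted p of 0.05, where 26 of all 17068 genes did (0.152%). DESeq2 called 2 of the 10, Egln1 and Egln3, against a background of 2.97% of genes, and limma on the deposited variance-stabilised values called 0. At an unadjusted p under 0.05 edgeR picked 3 of the 10, Egln1, Egln3 and Hif3a, all higher in the libraries labelled Foxp1cKO, where 13.0% of all genes reached that level. In the same genes both labelled libraries lay above every control, an arrangement found in 11.5% of all genes, and in Hif1an both lay below every control, as in 13.1% of all genes. The median log2 fold change of the 10 genes was 0.04, beside -0.00445 over all genes, with 7 genes higher and 3 lower. The number of genes called in all was 6 without control 1, 2 without control 2, 96 without control 4, 9 without the library labelled Foxp1cKO 1 and 3 without Foxp1cKO 2, and 1 of the 10 genes, Egln3, was called only without control 3 or control 4.

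**Figure D2:**
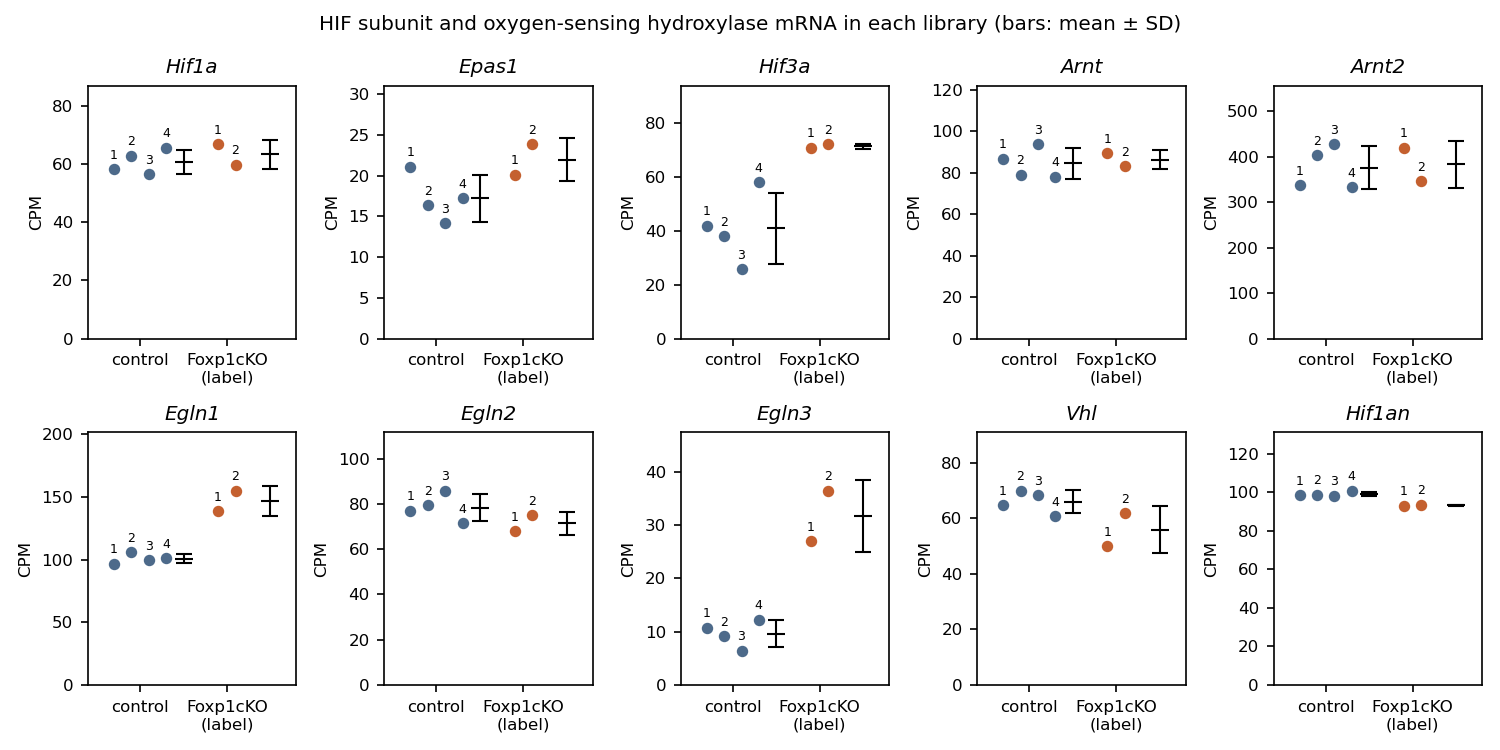
CPM of each gene in the 6 libraries, 1 point per library with its replicate number, and beside each group a bar for the mean and SD (n = 4 controls, n = 2 labelled Foxp1cKO), each panel on its own axis from 0. Both labelled libraries lie above all controls for Hif3a, Egln1 and Egln3 and below them for Hif1an, while the groups overlap for the other genes.

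Among the alpha subunits, Hif1a (chr12:73901375-73947530, plus strand, GRCm38, the assembly of mm10, as for all positions here), whose protein is the broadly expressed HIF alpha subunit, showed no difference past the threshold. Its level was 58.2, 62.9, 56.5 and 65.6 CPM in controls and 66.8 and 59.8 CPM in the libraries labelled Foxp1cKO. The groups overlapped, and the log2 fold change was 0.06 (SE 0.0933, 95% interval -0.16 to 0.28, adjusted p = 0.83 by the quasi-likelihood test of edgeR, Benjamini-Hochberg adjusted), so that the interval holds changes of either sign. Another transcript at the same place rose. Gm15283, annotated antisense over the whole Hif1a gene and sharing 330 bases of exon with it (5.597% of Hif1a exon), was at 0.743, 0.563, 0.659 and 0.876 CPM in controls and at 9.14 and 18.7 CPM in the labelled libraries. Its log2 fold change was 4.29 (SE 0.315, adjusted p = 0.00963 by the same edgeR test), and both labelled libraries lay far above every control. The kit marks strand, but the strand setting of the counting was not given in the sources used here, so reads in the shared exon bases may have been counted for either gene or left out. Gm49321, on the same strand as Hif1a and sharing 148 bases of exon, had a log2 fold change of -0.32 (SE 0.308, adjusted p = 0.691 by edgeR).

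Epas1 (chr17:86753700-86833410, plus strand), which encodes HIF-2 alpha and is known for its high level in endothelium, was at 21.1, 16.4, 14.2 and 17.2 CPM in controls and at 20.1 and 23.9 CPM in the labelled libraries. Control 1 lay between the labelled libraries, so the groups overlapped. The log2 fold change was 0.35 (SE 0.169, 95% interval -0.05 to 0.75), with an adjusted p of 0.424 by edgeR. The 12 endothelial markers summed to 157 to 241 CPM in controls and 215 to 267 CPM in the labelled libraries. None was at 0 counts, and control 1 was the highest control in that sum as well. Among them, Flt1 was at 12.53 to 18.08 CPM in controls and at 44.57 and 54.15 CPM in the labelled libraries. By log2 fold change 8 of the 12 were higher and 4 lower (Tek, Tie1, Cldn5 and Egfl7). The median log2 fold change of the 12 was 0.07, and the sums of the groups overlapped. The part of endothelial cells in the Epas1 level was not tested.

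Hif3a (chr7:17031507-17062427, minus strand) encodes an alpha subunit with inhibitory forms that lack the main activation domain. It was at 41.9, 37.9, 25.7 and 57.9 CPM in controls and at 70.7 and 72.0 CPM in the libraries labelled Foxp1cKO. Both labelled libraries lay above control 4, the highest control, and close to each other. The ratio of means was 1.75, and the log2 fold change was 0.80 (SE 0.270, 95% interval 0.17 to 1.44). The adjusted p was 0.314 by edgeR's quasi-likelihood test and 0.0828 by DESeq2, past the threshold in neither.

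The makeup of the alpha mRNA pool was compared within each library. Hif3a made up 31.4, 29.4, 24.0 and 37.8% of the summed alpha level per kilobase in controls and 41.4 and 42.7% in the labelled libraries. Hif1a made up 49.7, 55.4, 60.1 and 48.7% in controls and 44.5 and 40.3% in the labelled libraries. For both shares the groups did not overlap, whereas the share of Epas1, at 13.5 to 19.0% in controls and 14.1 and 17% in the labelled libraries, overlapped. No test was made of these shares, which use the same libraries as the comparison of each gene.

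**Figure D3:**
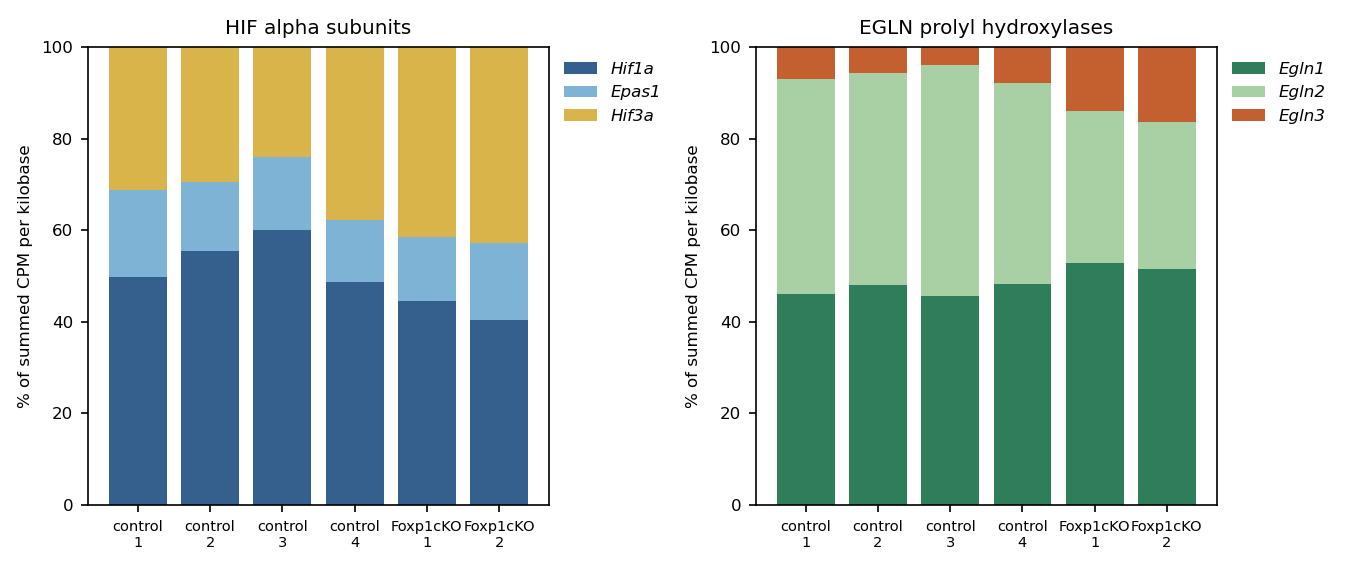
Share of each gene (% of the summed CPM per kilobase of its family) in each library, 1 stacked bar per library, for the 3 HIF alpha subunits (left) and the 3 EGLN prolyl hydroxylases (right). Egln3 takes 3.96 to 7.89% of its family in controls and 13.9 and 16.4% in the libraries labelled Foxp1cKO, and Hif3a takes 24.0 to 37.8% and 41.4 and 42.7%.

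The beta subunits, which pair with each alpha subunit to bind DNA, differed by less than the spread between libraries. Arnt (chr3:95434388-95497240, plus strand) was at 86.8, 79.1, 93.7 and 78.1 CPM in controls and 89.4 and 83.2 CPM in the labelled libraries (log2 fold change 0.03, SE 0.0973, 95% interval -0.20 to 0.26, adjusted p = 0.922 by edgeR). Arnt2 (chr7:84246278-84410176, minus strand) was at 338, 404, 427.5 and 332.5 CPM in controls and 420 and 346 CPM in the labelled libraries (log2 fold change 0.03, SE 0.137, 95% interval -0.30 to 0.35, adjusted p = 0.951 by edgeR). The groups overlapped for both genes. Per kilobase, Arnt2 exceeded Arnt by a factor of 4.06 to 5.32 in controls and of 4.89 and 4.33 in the labelled libraries, so Arnt2 was higher in every library. With the longest transcript as the length, the control levels were 60.3 CPM per kilobase for Arnt2 and 19.5 for Arnt, a smaller excess. Gm30873 is annotated antisense to Arnt2 with 214 shared exon bases and was not analysed here.

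Among the 10 genes, the prolyl hydroxylase genes Egln3 and Egln1 held the clearest differences, although neither passed the threshold by edgeR. Egln3 (chr12:54178981-54203860, minus strand), the family member with the strongest known induction by HIF, was at 10.7, 9.11, 6.41 and 12.2 CPM in controls and at 27.0 and 36.4 CPM in the libraries labelled Foxp1cKO. Both labelled libraries lay well above control 4, the highest control. The means were 9.62 ± 2.49 CPM (SD, n = 4) and 31.7 ± 6.67 CPM (SD, n = 2), a ratio of 3.29. The log2 fold change was 1.72 (SE 0.249, 95% interval 1.13 to 2.31), and against single controls the mean of the labelled libraries was 1.36 to 2.29 higher on the log2 scale of CPM. The study, which held the litter in its model, listed Egln3 among its top upregulated genes. In the fits made here, without the litter, the adjusted p was 0.0758 by edgeR's quasi-likelihood test, 0.0686 by limma and 5.7e-08 by DESeq2, so that the call depends on the test. By edgeR it was 0.0486 without control 3 and 0.0444 without control 4, and it was 0.235 to 0.471 when any other library was left out.

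Egln1 (chr8:124908587-124949324, minus strand) encodes PHD2, the main prolyl hydroxylase acting on HIF-1 alpha. It was at 96.9, 105.8, 99.6 and 101.2 CPM in controls and at 138.5 and 155.0 CPM in the libraries labelled Foxp1cKO. The controls lay close together and both labelled libraries lay above all of them. The means were 100.9 ± 3.73 CPM (SD, n = 4) and 146.8 ± 11.7 CPM (SD, n = 2), and the log2 fold change was 0.54 (SE 0.0769, 95% interval 0.36 to 0.72). The adjusted p was 0.0758 by edgeR's quasi-likelihood test, 0.0686 by limma and 2.14e-06 by DESeq2, and it did not pass by edgeR when any single library was left out (0.062 to 0.504).

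Egln2 (chr7:27158658-27166802, minus strand), which encodes PHD1 and is not known as a strong HIF target, had the opposite sign. It was at 77.0, 79.4, 85.8 and 71.4 CPM in controls and at 67.9 and 75.1 CPM in the labelled libraries, with overlapping groups. The log2 fold change was -0.13 (SE 0.0956, 95% interval -0.36 to 0.09, adjusted p = 0.580 by edgeR). Cyp2t4, annotated on the other strand, shares 11 exon bases with Egln2 and was not analysed here.

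The 3 hydroxylases stood in other proportions in the labelled libraries. The ratio of Egln1 to Egln2 per kilobase was 0.981, 1.04, 0.904 and 1.105 in controls and 1.59 and 1.61 in the libraries labelled Foxp1cKO. Egln3 took 6.90, 5.59, 3.96 and 7.89% of the summed EGLN level per kilobase in controls and 13.9 and 16.4% in the labelled libraries, while Egln2 took 43.8 to 50.4% in controls and 33.3 and 32.1%. The groups overlapped in none of these values. Against the mRNA of their substrate, Egln1 stood at 2.53 to 2.89 times the Hif1a level per kilobase in controls and at 3.40 and 4.25 times in the labelled libraries, and Egln3 at 0.251 to 0.413 times and 0.895 and 1.35 times. These ratios rest on the same libraries and add no independent evidence to the differences of the single genes.

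**Figure D4:**
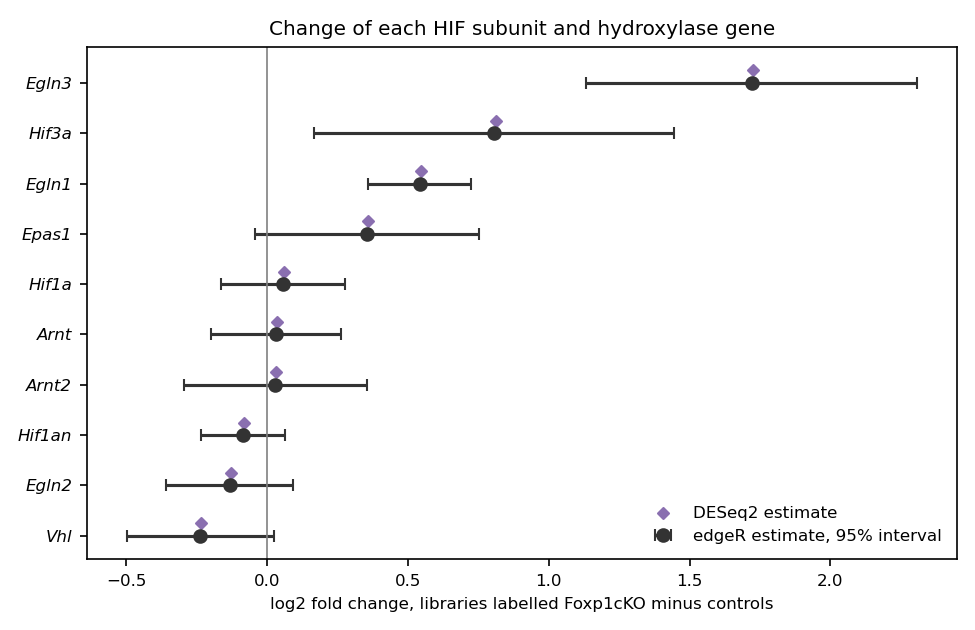
Log2 fold change of each gene, libraries labelled Foxp1cKO (n = 2) minus controls (n = 4), ordered by size. Circles with bars are the edgeR estimates with 95% intervals and diamonds the DESeq2 estimates, and the intervals of Egln3 (1.13 to 2.31), Hif3a (0.17 to 1.44) and Egln1 (0.36 to 0.72) lie above 0 before adjustment for multiple tests.

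The genes Vhl and Hif1an had small negative log2 fold changes that passed no test. Vhl (chr6:113623959-113631633, plus strand), the substrate-recognition subunit of the ligase, was at 64.7, 69.8, 68.4 and 60.6 CPM in controls and at 49.8 and 61.9 CPM in the labelled libraries. The groups overlapped, since the library labelled Foxp1cKO 2 lay above control 4. The log2 fold change was -0.24 (SE 0.111, 95% interval -0.50 to 0.02, adjusted p = 0.414 by edgeR), and it was -0.42 without Foxp1cKO 2 and -0.09 without Foxp1cKO 1. Hif1an (chr19:44562850-44576274, plus strand), known as FIH, was at 98.3, 98.6, 98.2 and 100.7 CPM in controls and at 93.05 and 93.4 CPM in the labelled libraries. Both labelled libraries lay below every control, but by a small step, with a log2 fold change of -0.09 (SE 0.0636, 95% interval -0.24 to 0.06, adjusted p = 0.592 by edgeR). Per kilobase, Hif1an stood at 0.507 to 0.552 of the Egln1 level in controls and at 0.366 and 0.328 in the labelled libraries.

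Promoter sequence is shown for the 3 genes that were higher in both labelled libraries, Egln3, Egln1 and Hif3a, and for their relatives Egln2 and Hif1a that were not. The sequences are RefSeq promoter windows of mouse assembly GRCm38.p6, up to 250 bases before the annotated start, ended before the first exon base of the gene in GENCODE M21, and written 5′ to 3′ on the strand of the gene. Capitals mark matches on either strand to ACGTG or GCGTG, the core letters of the hypoxia response element that HIF binds (CACGT and CACGC where the match is on the other strand).
Egln3 (chr12:54203875-54204124, minus strand): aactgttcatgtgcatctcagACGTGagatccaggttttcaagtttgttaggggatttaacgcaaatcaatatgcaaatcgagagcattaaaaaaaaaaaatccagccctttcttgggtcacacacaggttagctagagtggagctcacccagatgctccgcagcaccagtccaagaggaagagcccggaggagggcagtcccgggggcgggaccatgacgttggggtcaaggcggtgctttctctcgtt
Egln1 (chr8:124949325-124949504, minus strand): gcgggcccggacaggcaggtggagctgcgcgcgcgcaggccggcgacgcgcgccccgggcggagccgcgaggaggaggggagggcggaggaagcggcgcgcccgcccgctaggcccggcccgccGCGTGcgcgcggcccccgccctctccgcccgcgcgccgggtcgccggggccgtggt
Hif3a (chr7:17062428-17062677, minus strand): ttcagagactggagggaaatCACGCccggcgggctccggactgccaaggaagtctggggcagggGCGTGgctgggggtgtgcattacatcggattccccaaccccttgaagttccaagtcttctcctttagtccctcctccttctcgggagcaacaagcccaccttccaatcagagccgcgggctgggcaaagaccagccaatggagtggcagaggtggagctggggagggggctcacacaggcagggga
Egln2 (chr7:27166803-27167052, minus strand, the first of 2 start sites): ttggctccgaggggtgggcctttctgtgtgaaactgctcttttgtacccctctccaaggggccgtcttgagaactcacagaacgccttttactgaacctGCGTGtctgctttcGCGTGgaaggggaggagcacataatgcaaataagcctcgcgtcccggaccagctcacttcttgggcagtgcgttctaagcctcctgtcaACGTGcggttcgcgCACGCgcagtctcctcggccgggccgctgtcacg
Hif1a (chr12:73907617-73907866, plus strand): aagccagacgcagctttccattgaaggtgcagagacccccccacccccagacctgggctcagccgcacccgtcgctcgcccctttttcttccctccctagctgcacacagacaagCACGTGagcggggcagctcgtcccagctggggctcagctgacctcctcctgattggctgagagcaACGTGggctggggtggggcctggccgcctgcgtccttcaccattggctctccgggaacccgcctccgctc
In these stretches Egln3 has 1 site, Egln1 has 1, Hif3a has 2, Egln2 has 4 and Hif1a has 2, the CACGTG of Hif1a matching on both strands and counted as 1 site. A further Egln1 match lies in the rest of its 250-base window, inside the first exon of GENCODE M21. Such short motifs are common, with at least 1 match in 12679 of 32851 mouse promoter windows of 250 bases (38.6%), and 2.58% of windows had 4 or more matches. Of the 10 genes, 9 had an entry with 10 windows in all, 7 of them with a match, and the windows of Arnt2, Vhl and Hif1an had none. Epas1 had no entry. The Hif1a window lies inside the gene as GENCODE M21 draws it, outside its exons, since a longer transcript starts upstream.

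The same libraries were read for the known HIF targets, 30 genes listed with earlier results of these data known. Of these, 10 rose by the quasi-likelihood test of edgeR, Benjamini-Hochberg adjusted, and 0 fell, where 0.152% of all genes were called. A positive log2 fold change was found in 29 of the 30, beside 8407 of all 17068 genes. In 26 both labelled libraries lay above every control, an arrangement found in 11.5% of all genes. The median log2 fold change was 1.20, beside -0.00445 over all genes. Vegfa, the vessel growth factor, rose by 1.84 on the log2 scale (SE 0.0840, adjusted p = 0.00165). The mitophagy receptor Bnip3 rose by 2.53 (adjusted p = 0.00843), the peptide hormone gene Adm by 2.43 (adjusted p = 0.0130) and Pdk1, whose kinase turns pyruvate away from the mitochondrion, by 2.16 (adjusted p = 0.0178). The glycolytic genes Aldoa and Pfkl rose by 1.59 and 1.29 and the glucose transporter gene Slc2a3 by 1.17, and the collagen prolyl hydroxylase gene P4ha1 and the endoplasmic reticulum oxidase gene Ero1l rose by 1.40 and 0.66. Ndrg1 had a negative estimate that its error does not set apart from 0 (-0.33, SE 0.557, adjusted p = 0.836 by edgeR), with 8.32 CPM in control 4, 30.5 to 36.0 CPM in the other controls and 14.5 and 28.3 CPM in the labelled libraries. The study, which held the litter in its model, listed Ndrg1 among its top upregulated genes, and the part of the litter in this difference was not tested. DESeq2 called 25 of the 30, and by edgeR the count was 3 without control 1, 1 without control 2, 17 without control 4, 3 without the library labelled Foxp1cKO 1 and 1 without Foxp1cKO 2. The log2 fold change of Egln3 thus lay above the median of this list and that of Egln1 below it.

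**Figure D5:**
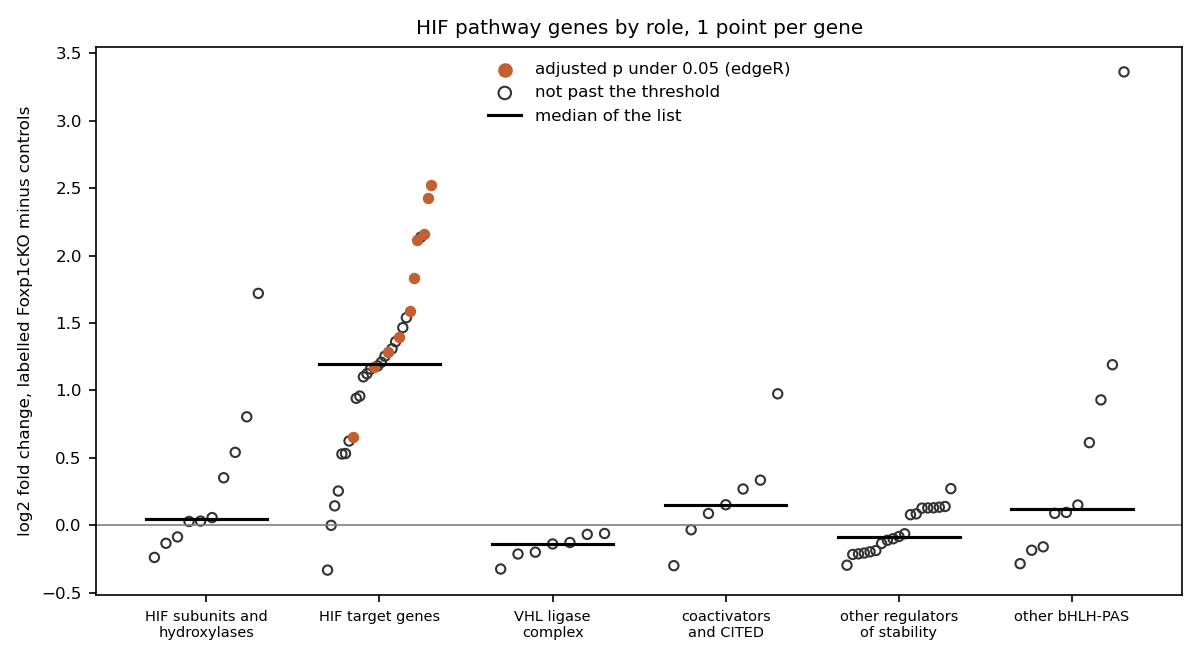
Log2 fold change, libraries labelled Foxp1cKO (n = 2) minus controls (n = 4), of the genes of each HIF pathway list, 1 point per gene, with a line at the median of each list and filled points for genes past an adjusted p of 0.05 by edgeR. The median is 1.20 for the HIF target genes and 0.04 for the HIF subunits and hydroxylases, and filled points occur only among the target genes.

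In the other lists of the machinery 0 genes were called by edgeR. The 7 genes listed for the VHL ubiquitin ligase and the NEDD8 pathway all had a negative log2 fold change, as did 8661 of all 17068 genes. Their median was -0.14. In 6 of them both labelled libraries lay below every control, an arrangement found in 13.1% of all genes. By edgeR, DESeq2 or limma 0 of the 7 were called, and 2 had an unadjusted p under 0.05 by edgeR, a level that 13.0% of all genes reached. The smallest p-values were those of Nedd8, the modifier that activates the cullin (log2 fold change -0.32, adjusted p = 0.289 by edgeR), the RING subunit gene Rbx1 (-0.21, adjusted p = 0.382) and the elongin gene Elob (-0.20, adjusted p = 0.407). Of 7 genes for HIF coactivators and the CITED proteins that compete with HIF for them, 0 were called by edgeR, DESeq2 or limma and 2 had an unadjusted p under 0.05, the acetyltransferase gene Crebbp (0.34, adjusted p = 0.289) and Ncoa2 (0.27, adjusted p = 0.301), followed by Cited1 (-0.30, adjusted p = 0.625). Of 19 other regulators of HIF or EGLN stability, 0 were called by the same 3 tests, 2 had an unadjusted p under 0.05 and the median was -0.08. The 3 with the smallest p were Siah1a, for a ligase acting on EGLN proteins (0.27, adjusted p = 0.343), the SUMO protease gene Senp1 (-0.22, adjusted p = 0.348) and the chaperone-linked ligase gene Stub1 (-0.20, adjusted p = 0.392).

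The other bHLH-PAS genes, relatives of the HIF subunits, had 10 genes in the comparison, of which 0 were called by edgeR or limma. An unadjusted p under 0.05 by edgeR was reached by 3 of them and by 13.0% of all genes. DESeq2 called 2 of them and 2.97% of all genes. Npas3, a neural family member, was at 56.9, 54.2, 73.1 and 70.8 CPM in controls and at 109.9 and 85.3 CPM in the labelled libraries, above every control (log2 fold change 0.61, SE 0.159, adjusted p = 0.251 by edgeR and 0.0323 by DESeq2). Sim1 was at 2.90 CPM in the library labelled Foxp1cKO 1 and at 0.119 CPM in Foxp1cKO 2, the latter within the controls (0.0807 to 0.274 CPM), so its log2 fold change of 3.36 (adjusted p = 0.289 by edgeR and 0.0482 by DESeq2) rests on 1 library. Clock, a circadian regulator, had a log2 fold change of -0.18 (adjusted p = 0.364 by edgeR).

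Genes with the most similar pattern across the 6 libraries were sought among the 11332 genes with a mean of at least 5 CPM, by the root mean square difference in log2 CPM centred over the libraries. The nearest to Egln1 were Bnip3l (0.0278), Rlf (0.0383) and Slc37a4 (0.0461), and the nearest to Egln3 were Flt1 (0.145), Ldha (0.182) and Vwf (0.221). By this distance, which is not scaled for how widely a gene varies, Egln3 had no neighbour as close as those of Egln1. Egln3 also varied more widely than Egln1 across the libraries. For Epas1 they were Timp3 (0.0442), Cd93 (0.0518) and Pdgfb (0.0711), for Hif1a they were Mapk1ip1l (0.0189), Nabp2 (0.0200) and Pacsin2 (0.0201), and for Arnt2 they were Lrrc49 (0.0262), Sh3glb1 (0.0373) and Fam222b (0.0391). These are descriptions over 6 libraries that share the group difference, and no test was made.

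Markers of other cells that the tissue holds were set beside the differences of Egln3, Egln1 and Hif3a. The 7 pericyte and mural markers summed to 195 to 231 CPM in controls and 286 to 290 CPM in the libraries labelled Foxp1cKO, with 6 of 7 higher, a median log2 fold change of 0.42 and 0 called by edgeR or limma (4 at an unadjusted p under 0.05, 1 called by DESeq2). Of the 12 endothelial markers 8 were higher, with a median of 0.07, and 2 had an unadjusted p under 0.05 and were called by DESeq2. These were Flt1 (log2 fold change 1.64, adjusted p = 0.0179 by edgeR), which was also called by edgeR, and Pecam1 (log2 fold change 0.65, SE 0.169, adjusted p = 0.251 by edgeR and 0.0281 by DESeq2), and for both genes the labelled libraries lay above every control. The 7 red cell markers summed to 1010 to 2870 CPM in controls, highest in control 4, and 3040 to 3370 CPM in the labelled libraries, with 6 of 7 higher, a median of 1.01 and 0 called by edgeR or limma (3 at an unadjusted p under 0.05, 1 called by DESeq2). Sums of the microglia markers were 18.3 to 28.3 CPM and 27.6 to 28.7 CPM, those of mesenchyme and meninges 92.7 to 563 CPM and 150 to 340 CPM, those of radial glia 2090 to 2510 CPM and 2300 to 2350 CPM, and those of neurons 2460 to 4410 CPM and 3180 to 3240 CPM. In these lists and that of the ventral telencephalon 0 markers were called by edgeR, DESeq2 or limma, and an unadjusted p under 0.05 was reached by 2 microglia and 2 radial glia markers. Over all genes 13.0% reached that level by edgeR, and DESeq2 called 2.97%. No marker in the comparison was at 0 counts in every library. Sox2, Tubb3 and Sim2 had no row under their symbols in the count table, so they were not analysed here. The part of these cells in the HIF pathway values was not tested.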

How the data were processed

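RNA was extracted from lateral cortex of 6 embryos, and the authors made libraries with a TruSeq Stranded RNA kit. Per the labels and the study's methods, reads were checked with FastQC 0.11.9, aligned to mm10 with STAR and counted on genes with HTSeq 0.9.1, and the notes also name R 4.0.3 and DESeq2 1.30.1. The strand setting of the counting was not given in the sources used here. The authors deposited whole counts of 17068 genes that passed their filter, without normalization, and variance-stabilised values of the same table on a log2-like scale.

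Counts of all genes were tested in R 4.3.3 with edgeR 4.0.16 (quasi-likelihood test, TMM, a model of group alone, Benjamini-Hochberg adjustment, threshold 0.05). CPM are counts over the TMM-scaled total, times 1000000, and levels per kilobase divide CPM by the union of exons in GENCODE M21, another release than the authors' on the same assembly, in which 17047 identifiers were found and 21 were not. Of 2 identifiers with the symbol Aldoa, the one with more counts was used. Log2 CPM for similar patterns used a prior count of 2. Alternatives were DESeq2 1.42.0, limma 3.58.1 with a trend on the deposited log2-like values, a robust edgeR fit, DESeq2 size factors, total counts, a minimum mean of 1 CPM, each library left out, and the replicate number as a block. The fits were tested on simulated data. Chi-square values per gene between pairs of libraries were 25.9 to 193, so no library repeated another. Floors of 3 counts cover counting error only, since amplified reads are not independent molecules.

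The 10 genes and all lists were chosen with earlier results of these data known. Named in the text are the 10 genes, Foxp1, annotated genes overlapping them, genes past the threshold in each pathway list or else the 3 with the smallest p, and the 3 genes most similar to each of 5 of the 10 genes. Flt1, Pecam1, Emx1 and Ndrg1 are named after their values were seen. Some genes that the rule covers are not reported here. The authors held the litter in their model, which the labels do not give.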

Additional observations from a re-analysis of the deposited data

Results flagged for a closer look

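In 5 of 84 genes examined, Foxp1 and the HIF pathway genes, 1 of the 4 controls stood apart from the other 3, with a gap to its nearest neighbour above Dixon's 95% limit for groups of that size, as a part of the whole range of the controls. Chance sets about 1 in 20 groups apart in this way. Hif1an was at 101 CPM in control 4, the highest control (gap 0.862 of the range), in a gene whose controls otherwise lay between 98.2 and 98.6 CPM. Ube2m was highest in control 2 at 86.9 CPM (0.890 of the range), and Vegfa was lowest in control 2 at 64.9 CPM (0.903). Cited4 was highest in control 4 at 2.30 CPM (0.956), and Aldoa was highest in control 4 at 242 CPM (0.861).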

How the results depend on the processing

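The direction of Egln1, Egln3, Hif3a, Epas1, Egln2, Vhl and Hif1an was kept under every alternative run. Leaving out 1 library in turn gave log2 fold changes of 0.44 to 0.62 for Egln1, 1.47 to 1.92 for Egln3, 0.62 to 1.02 for Hif3a, 0.21 to 0.47 for Epas1, -0.23 to -0.06 for Egln2, -0.42 to -0.09 for Vhl and -0.11 to -0.08 for Hif1an. Signs turned there for genes near 0, with ranges of -0.0244 to 0.119 for Hif1a, -0.0217 to 0.0711 for Arnt (-0.00443 without control 4) and -0.117 to 0.143 for Arnt2 (-0.038 without control 1 and -0.0253 without control 4). With 1 library left in a group, its spread was taken from the other group. Leaving out 1 library gave 0 to 1 of the 10 genes, 2 to 96 of all genes, 1 to 17 of the HIF targets and 0 to 1 of the other pathway genes. DESeq2 called 2, 507 (310 higher), 25 and 2 of these, where edgeR called 0, 26 (26 higher), 10 and 0. With the replicate block, the numbers 1 and 2 shared by the labels, edgeR called 0 of the 10 genes, 0 of all genes (3027 at an unadjusted p under 0.05) and 0 of the HIF targets, with log2 fold changes of 0.53 for Egln1 and 1.66 for Egln3. Nothing in the labels ties a number to a shared litter or batch, so these libraries share only a number. Deviations of same-numbered libraries correlated at -0.198 and 0.0157 and those of the crossed pairs at 0.198 and -0.0157, opposite by construction with 2 labelled libraries, which settles no pairing. The crossed replicate block, chosen after the data were seen, called 3 (Egln1, Egln3 and Hif3a, the last with an adjusted p of 0.000679 by edgeR), 1301 (842 higher), 26 and 7. In both block fits controls 3 and 4 stood alone in their blocks, so the group difference rested on 2 pairs of libraries. Since no pairing is known, the calls of neither block fit decide about the pairing or about Hif3a. The cause of these shifts was not tested. The limits are 2 labelled libraries, a whole-gene Foxp1 mRNA level that was not lower under the mutant label, and mRNA in place of protein.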
